A study of Homo sapiens with 24 samples.

Results

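The subject is the change in nascent transcription after dTAG-13 treatment, compared between 2 sets of replicates of T47D cells that carry a degron tag on TRPS1. Nascent transcription was measured by PRO-seq (precision run-on sequencing), in which the reads within a gene count the polymerases that are transcribing it. All 24 libraries entered the comparison, as 12 pairs of a DMSO and a dTAG-13 library with the same clone and the same replicate number. Of these, 6 pairs carry replicate number 1 or 2 and 6 carry number 3 or 4, each set holding 2 pairs per clone and 2 replicate numbers. The replicates were treated and collected at different times of one day, with DMSO and dTAG-13 cells collected at once. A replicate number is taken here to mark a shared collection, which the sources do not state. The labels do not give the hour that belongs to a number, so the sets are called replicates 1-2 and replicates 3-4. The response of a gene is the log2 ratio of its dTAG-13 to its DMSO transcription within pairs, and the difference of response is its value in replicates 3-4 minus its value in replicates 1-2. It was tested for 22326 genes, out of 60605 in the table.

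Clones 28, 35 and 39 are single-cell clones of T47D, a luminal breast cancer cell line. Some copies of the TRPS1 gene are disrupted in each clone and the others encode tagged protein, so the controls lack untagged TRPS1 as well. The clones had been through a puromycin and then a hygromycin selection, and were grown with serum and insulin. Cells received 100 nM dTAG-13 in DMSO or DMSO alone for 90 minutes.

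dTAG-13 is a small molecule that bridges the tag, a variant of FKBP, and the cereblon E3 ubiquitin ligase, so that the tagged protein is degraded within minutes to hours. TRPS1 is a GATA-family zinc finger protein that recruits corepressor complexes and is highly expressed in luminal breast cells. Genes differ in how quickly their transcription follows a change in culture conditions. Immediate early genes and stress genes respond within minutes to serum, handling and temperature, and replication-dependent histone genes are transcribed mainly in S phase.

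The libraries held 3226718 to 9575803 counts. The total count of the dTAG-13 library relative to its DMSO partner did not differ detectably between the sets, with a difference of 0.16 on the log2 scale (exact permutation of the sets over the pairs within clones, two-sided, p = 0.315). Luminal markers were transcribed in all groups. The 10 luminal markers summed to between 9525 and 14730 CPM in a library. TRPS1, 1 of the 10, was alone at 5183 to 9296 CPM. The sums were at most 65.3 CPM for the basal, 26.3 CPM for the stromal and 34.6 CPM for the immune and endothelial markers. Of these markers 4 of 7, 2 of 8 and 5 of 8 passed the filter, and the sums include the others in the table. KRT15, a keratin of basal and progenitor cells that is not on the basal list, was at 86.0 to 240.4 CPM. CPM is the count of a gene relative to the library size after scaling by the TMM method. The pair of Clone 35 replicate 2 stood apart from the others on the first principal component of the 12 responses, at 45.7 against -31.4 to 22.8, and its dTAG-13 library held the highest share of reads in genes up to 5 kb long, 10.5% against 7.22% to 9.34% in the other libraries. The second component, with 12.3% of the variance, was positive in all 6 pairs of replicates 1-2 (5.99 to 24.1) and negative in all 6 of replicates 3-4 (-42.0 to -5.75).

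TRPS1 itself was transcribed more after dTAG-13 in both sets, and the increase was larger in replicates 3-4. The treatment removes the protein and not the gene, so these counts do not check the labels. In DMSO, TRPS1 was at 7195 to 8747 CPM in replicates 1-2 (median 7687) and at 5183 to 6435 CPM in replicates 3-4 (median 5694). With dTAG-13 it was at 7865 to 9296 CPM (median 8420) and at 6304 to 7619 CPM (median 6989). The DMSO levels of the sets did not overlap, and replicates 3-4 were the lower. For TRPS1 and every gene below, the response is taken against these same DMSO libraries, so level and response are not separate observations. The responses of single pairs ran from 0.07 to 0.17 in replicates 1-2 (median 0.12) and from 0.21 to 0.34 in replicates 3-4 (median 0.27), so every pair of replicates 3-4 lay above every pair of replicates 1-2. The response was 0.12 ± 0.01 (SE) in replicates 1-2 and 0.28 ± 0.01 in replicates 3-4 (edgeR quasi-likelihood test, adjusted p = 0.000159 and 6.23e-09), and the difference was 0.16 ± 0.02 (adjusted p = 0.000177). The exact permutation of the sets over the pairs within clones gave p = 0.00926, two-sided, the smallest value that its 216 arrangements allow. The 3 clones of a replicate number may share a collection. In each clone the response was higher in replicate 3 than in replicate 4 (0.34 and 0.28 in Clone 28, 0.33 and 0.24 in Clone 35, 0.26 and 0.21 in Clone 39). This permutation and the edgeR tests take the 12 pairs as independent, and their p-values may be too small for that. With the replicate number as the unit, 2 against 2, the exact permutation gave p = 0.333 for TRPS1, two-sided, which is the smallest value that its 6 arrangements allow. The difference was 0.16 in Clone 28, 0.19 in Clone 35 and 0.14 in Clone 39. An antisense gene, TRPS1-AS1, overlaps TRPS1, and the strand setting of the counting is not given in the sources used here.

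**Figure D1:**
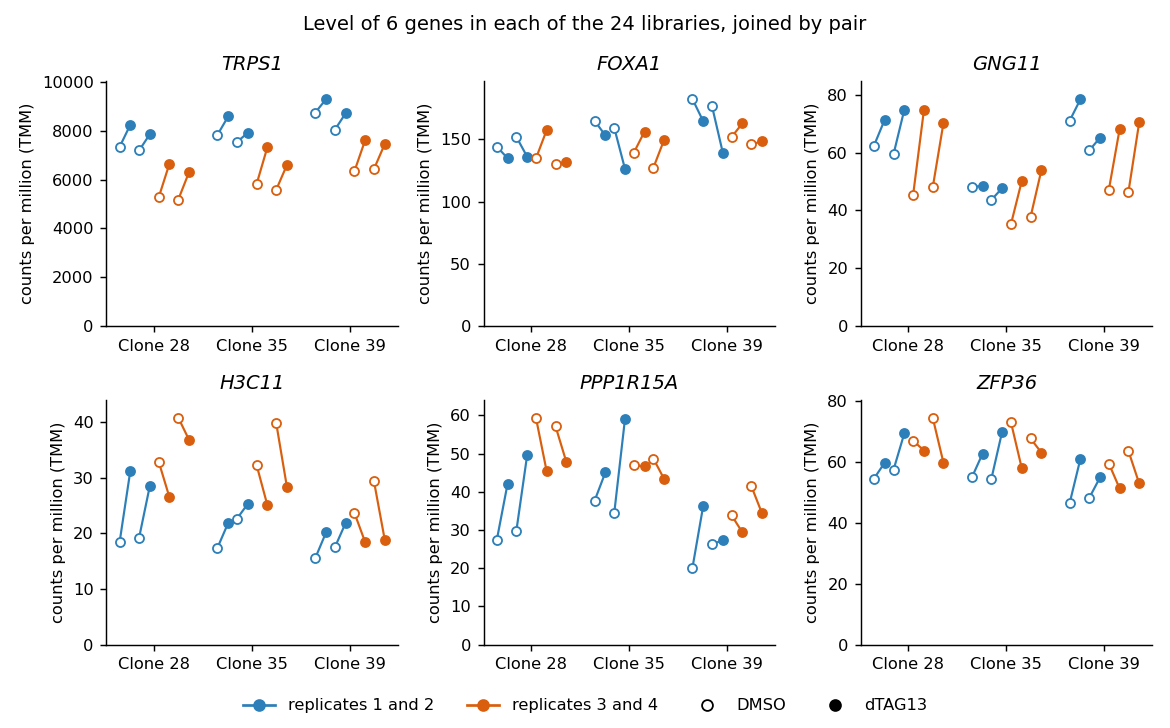
CPM scaled by TMM (vertical axis, separate scale from 0 per gene) of TRPS1, FOXA1, GNG11, H3C11, PPP1R15A and ZFP36 in each of the 24 libraries, by clone (horizontal axis); open circles are DMSO and filled circles dTAG-13, a line joins a pair, and colour gives the replicate set. For TRPS1 the DMSO libraries of replicates 3-4 (5183 to 6435 CPM) lie below those of replicates 1-2 (7195 to 8747 CPM), and the step from DMSO to dTAG-13 is larger in replicates 3-4.

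Across all genes the response differed between the sets for 1216 of the 22326 genes tested, or 5.45%, at an adjusted p (Benjamini-Hochberg over all genes tested) of at most 0.1. It was higher in replicates 3-4 for 562 genes (2.52%) and lower for 654 genes (2.93%). In replicates 1-2, 433 genes rose (1.94%) and 342 fell (1.53%) with dTAG-13. In replicates 3-4, 658 rose (2.95%) and 482 fell (2.16%). Of these, 95 rose in both sets and 39 fell in both. A further 85 genes rose in replicates 1-2 and fell in replicates 3-4, and 11 genes fell in replicates 1-2 and rose in replicates 3-4. The 6 responses of replicates 3-4 lay all above the 6 of replicates 1-2 for 166 genes (0.744%) and all below them for 276 genes (1.24%). The difference had the same sign in each of the 3 clones for 553 of the 562 higher genes and 643 of the 654 lower genes. These genes were called on the mean over the same 3 clones, so the agreement in sign is no separate check. Within single clones, with 2 pairs against 2, the response was higher in replicates 3-4 for 10, 46 and 15 genes and lower for 39, 86 and 52 genes in Clones 28, 35 and 39. A test that the difference was equal in the 3 clones called 2 genes, CALY and ENSG00000253281, both low in counts, and 912 genes had an unadjusted p under 0.05.

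These counts differed between settings. DESeq2 with the same terms called 123 genes, 23 higher and 100 lower, of which 23 and 99 were among those of edgeR. The median dispersion fitted by DESeq2 was 0.0673, and the median trended dispersion of edgeR was 0.00453. The cause of the lower count with DESeq2 was not tested. Without the replicate block, that is without a term for each pair, 159 genes were higher and 420 lower. Scaling by library totals in place of TMM gave 261 higher and 703 lower genes, so that 72.9% of the calls were lower, against 53.8%. Leaving out one pair at a time gave 728 to 1498 genes. The lowest count came without Clone 35 replicate 3, and the count of higher genes was then 285. The count of higher genes was 340 without Clone 28 replicate 3, 338 without Clone 35 replicate 2, 356 without Clone 39 replicate 1 and 374 without Clone 39 replicate 4. Without Clone 35, 98 genes were higher and 230 lower.

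**Figure D2:**
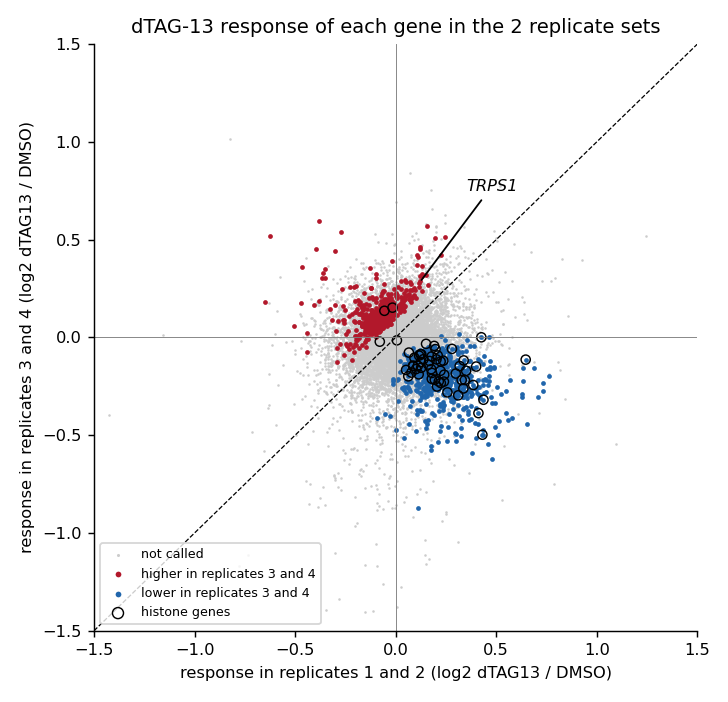
Response to dTAG-13 in replicates 1-2 (horizontal axis, log2) against replicates 3-4 (vertical axis, log2) for the 18186 genes with a mean log2 CPM of at least 2; red and blue points are genes whose response was higher or lower in replicates 3-4 at an adjusted p of at most 0.1, black rings are histone genes and the dashed line marks equal responses. Lower genes gather where the response was above 0 in replicates 1-2 and below 0 in replicates 3-4, which includes 85 genes that rose in the first set and fell in the second; 7 genes lie outside the axes, none of them called.

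The replication-dependent histone genes were the group with the highest share of lower calls among the lists described here. They encode the core and linker histones that package new DNA, and lie mostly in a cluster on chromosome 6. Of 57 tested, 47 had a lower response in replicates 3-4 (82.5%, against 2.93% of all genes) and none had a higher one. The median response of the group was 0.19 in replicates 1-2 and -0.15 in replicates 3-4, and the median difference was -0.34, against 0.01 over all genes. In replicates 1-2, 28 of them rose and none fell. In replicates 3-4, 1 rose (H4C16) and 24 fell, and 14 rose in the first set and fell in the second. The median over the 57 genes was 0.10 to 0.22 in the 6 pairs of replicates 1-2 and -0.22 to -0.09 in the 6 pairs of replicates 3-4. For 23 of the 57 genes the pairs of replicates 3-4 lay entirely below those of replicates 1-2, as for 276 of all 22326 genes (1.24%). The responses of H3C15, H4C16 and H2BC6 had positive differences that did not pass the test (0.06, 0.17 and 0.19). DESeq2 called 15 of the 57 lower, the fit without the replicate block 28, and the fits that left out 1 clone 34 (Clone 28), 25 (Clone 35) and 38 (Clone 39), each with none higher and a median between -0.34 and -0.32. The tested histone genes had a median length of 502 bases, and fewer were called lower after the rescaling by gene length described below. Many histone genes have near-identical copies, so reads may be split or shared between them, and the value of a single gene is uncertain.

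H4C4 encodes histone H4, and was at 38.1 to 66.6 CPM in DMSO in replicates 1-2 (median 56.2) and at 61.3 to 110.8 CPM in replicates 3-4 (median 77.8). With dTAG-13 it was at 57.2 to 84.5 CPM (median 71.3) and at 52.8 to 92.8 CPM (median 64.9). The pair responses were 0.20 to 0.76 in replicates 1-2 and -0.47 to -0.15 in replicates 3-4, without overlap, and the difference was -0.63 ± 0.07 (SE, edgeR adjusted p = 4.31e-09). H2AC17, a histone H2A gene, moved from a response of 0.31 to -0.30, a difference of -0.61 ± 0.08 (edgeR adjusted p = 2.87e-06). H2BC9, a histone H2B gene, had pair responses of 0.08 to 0.23 in replicates 1-2 and of -0.30 to -0.14 in replicates 3-4. The 2 histone genes with the largest differences were H2BC14 (-0.93 ± 0.24, edgeR adjusted p = 0.0201), which was at 2.79 to 15.1 CPM over the libraries in DMSO, and H3C11 (-0.80 ± 0.11, edgeR adjusted p = 2.07e-06), a histone H3 gene that rose by 0.41 in the first set and fell by 0.39 in the second. The linker histone gene H1-2 had a difference of -0.43 ± 0.07 (edgeR adjusted p = 0.000608).

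The 150 bases upstream of 3 of these genes are shown because the promoters of replication-dependent histone genes are compact, with a TATA box and CCAAT boxes close to the start. Sequences and starts are those of RefSeq on GRCh38.p14, read 5′ to 3′ on the strand of the gene, and the last base stands next to the transcription start. Capitals mark the TATA box letters TATAAA, the CCAAT box, the cyclic AMP response element TGACGTCA and the heat shock element core GAANNTTC, searched on both strands. The window of H4C4 is chr6:26189113-26189262 (minus strand), that of H2AC17 chr6:27893186-27893335 (minus strand) and that of H2BC9 chr6:26251464-26251613 (plus strand).
H4C4: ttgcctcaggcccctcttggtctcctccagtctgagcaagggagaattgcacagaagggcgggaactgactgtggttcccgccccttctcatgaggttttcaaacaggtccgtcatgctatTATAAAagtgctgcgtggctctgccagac
H2AC17: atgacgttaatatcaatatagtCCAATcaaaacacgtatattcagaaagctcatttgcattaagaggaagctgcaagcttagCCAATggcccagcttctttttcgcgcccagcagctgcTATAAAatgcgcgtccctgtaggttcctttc
H2BC9: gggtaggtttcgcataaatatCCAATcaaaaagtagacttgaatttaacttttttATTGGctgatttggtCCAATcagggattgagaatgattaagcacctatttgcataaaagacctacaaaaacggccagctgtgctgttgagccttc
TATAAA was present in this window in 26 of the 52 tested histone genes with a RefSeq entry (50%), and CCAAT in 43 (82.7%). Over all 35116 promoters of the same length, 6.71% held TATAAA and 23.5% CCAAT. Among genes tested, TATAAA was in 3.6% of 13437 promoters and CCAAT in 26.6%. TATAAA was in 55 of 394 genes whose response was lower in replicates 3-4 (14%) and in 12 of 373 whose response was higher (3.22%). Of those 55 genes, 22 were histone genes. Histone genes with and without TATAAA did not stand apart in their differences, with 22 of 26 and 20 of 26 lower and medians of -0.30 and -0.34. A match to these letters is a description of the sequence and not a measured binding site.

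The level of histone transcription also differed between the sets before any treatment effect. Summed over the histone genes in the table, tested or not, it was 2871 to 4082 CPM in the DMSO libraries of replicates 1-2 (median 3453). In those of replicates 3-4 it was 4125 to 5966 CPM (median 5024), without overlap. With dTAG-13 the sums were 3224 to 4590 CPM (median 3854) and 3922 to 5277 CPM (median 4422), and overlapped. The median histone gene was 0.52 higher on the log2 scale in replicates 3-4 than in replicates 1-2 in DMSO, and 0.21 higher with dTAG-13. The DMSO level and the response share the DMSO libraries.

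Other genes of the cell cycle did not share the histone pattern in their responses, although their levels also differed between the sets. Of 28 genes of G1/S and DNA replication, 2 had a higher and 2 a lower response in replicates 3-4, with a median difference of -0.01, and of 22 genes of G2/M none was higher and 1 lower, with a median difference of 0.04. In DMSO, 26 of the 28 and 21 of the 22 genes were higher in replicates 3-4, by a median of 0.28 and 0.38 on the log2 scale. PCNA, the sliding clamp of replicative polymerases, had pair responses of 0.17 to 0.32 in replicates 1-2 and of -0.24 to 0.02 in replicates 3-4, without overlap, and a difference of -0.36 ± 0.06 (edgeR adjusted p = 4.49e-05). CCNB2, a mitotic cyclin, rose by 0.31 in replicates 1-2 and had a response of -0.07 in replicates 3-4, with a difference of -0.38 ± 0.08 (edgeR adjusted p = 0.00159). It was not called without the replicate block (adjusted p = 0.138). MCM6 of the replicative helicase moved the other way, with a difference of 0.26 ± 0.07 (edgeR adjusted p = 0.0176).

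**Figure D3:**
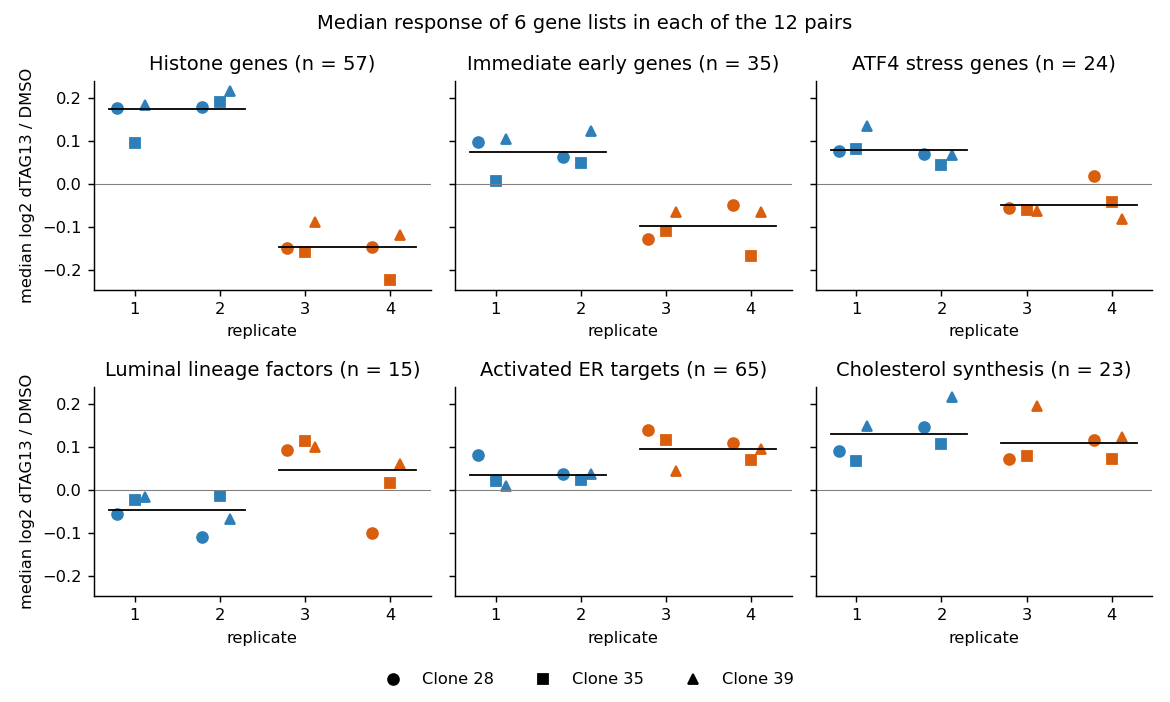
Median response to dTAG-13 over the tested genes of each list (vertical axis, log2) in each of the 12 pairs, by replicate number (horizontal axis); points are pairs, shaped by clone, and horizontal bars are the mean of the 6 pairs of a set. The histone genes lie above 0 in all 6 pairs of replicates 1-2 and below 0 in all 6 of replicates 3-4, while the cholesterol synthesis genes lie above 0 in all 12.

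Immediate early genes also held a high share of lower calls in replicates 3-4. They encode transcription factors and feedback regulators that are induced within minutes of growth factor or stress signalling. Of 35 tested, 9 were lower (25.7%, against 2.93% of all genes) and 1, MYC, was higher. The median response was 0.08 in replicates 1-2 and -0.14 in replicates 3-4. In the first set 6 rose and none fell, in the second 1 rose and 8 fell. PPP1R15A, the phosphatase subunit that reverses the integrated stress response, was at 20.2 to 37.7 CPM in DMSO in replicates 1-2 (median 28.6) and at 33.8 to 59.4 CPM in replicates 3-4 (median 47.8). With dTAG-13 it was at 27.3 to 59.0 CPM (median 43.6) and at 29.4 to 47.9 CPM (median 44.3). The pair responses were 0.06 to 0.84 in the first set and -0.39 to -0.01 in the second, and the difference was -0.78 ± 0.10 (edgeR adjusted p = 1.36e-05). NR4A1, an orphan nuclear receptor, rose by 0.25 in the first set and fell by 0.25 in the second. ZFP36, which promotes decay of AU-rich mRNAs, had pair responses of 0.13 to 0.39 and of -0.33 to -0.07, and a difference of -0.48 ± 0.07 (edgeR adjusted p = 4.36e-06). The antiproliferative gene BTG2 and the synaptic and immediate early gene ARC had differences of -0.47 ± 0.11 and -1.01 ± 0.26 (edgeR adjusted p = 0.00563 and 0.0176), with ARC below 11 CPM in every library. In DMSO, 27 of the 35 genes were higher in replicates 3-4 than in replicates 1-2, by a median of 0.14, and with dTAG-13 10 of 35 were, with a median of -0.08. DESeq2 called 3 of the 35 lower and none higher, and 9 were lower without the replicate block.

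The upstream bases of PPP1R15A, at chr19:48872271-48872420 (plus strand), and of HSPA1B, at chr6:31827588-31827737 (plus strand), are shown because each holds an element for which its stress response is known. They stand before the RefSeq starts on GRCh38.p14, with capitals as above. GENCODE begins PPP1R15A earlier, at base 48872212, so its window lies within the gene as annotated there.
PPP1R15A: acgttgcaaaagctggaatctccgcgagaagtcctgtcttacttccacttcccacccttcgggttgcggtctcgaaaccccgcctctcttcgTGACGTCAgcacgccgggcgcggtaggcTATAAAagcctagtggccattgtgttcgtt
HSPA1B: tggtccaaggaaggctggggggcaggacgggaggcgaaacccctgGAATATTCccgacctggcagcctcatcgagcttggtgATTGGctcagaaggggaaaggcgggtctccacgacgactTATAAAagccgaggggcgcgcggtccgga
HSPA1B encodes an inducible HSP70 chaperone and had a response of 0.23 in replicates 1-2 and of -0.15 in replicates 3-4, a difference of -0.38 ± 0.06 (edgeR adjusted p = 2.71e-05). HSPA1A, its near-identical neighbour with which it may share reads, had a difference of -0.47 ± 0.09 (edgeR adjusted p = 0.0181). HSP90AA1 was the other heat shock gene called, at -0.15. The heat shock list as a whole had a median difference of 0.00, with 3 of 18 genes lower and none higher, so it did not move as a group. GAANNTTC was in the window of 5 of 17 heat shock genes (29.4%), against 2.28% among genes tested and 3.26% of all promoters. TGACGTCA was in 6 of 52 histone promoters (11.5%), against 2.31% among genes tested and 1.4% of all promoters.

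The ATF4 stress response is set off by amino acid shortage and other stresses. Of 24 of its genes, 7 had a lower response in replicates 3-4 (29.2%, against 2.93% of all genes) and 1, STC2, a higher one. The median difference was -0.12. DESeq2 called 1 of the 24 lower and none higher, and without Clone 39 edgeR called 4 lower and none higher. ATF5, a transcription factor of this pathway, fell by 0.25 in replicates 3-4 and had a response of 0.22 in replicates 1-2 that did not pass the test, with a difference of -0.46 ± 0.11 (edgeR adjusted p = 0.00573). DDIT3 rose by 0.27 in replicates 1-2 and had a response of -0.09 in replicates 3-4. DDIT4, an inhibitor of mTORC1, had a difference of -0.36 ± 0.10 (edgeR adjusted p = 0.0391). Other regulators in this direction were CEBPD, a factor of the acute phase response, which rose by 0.44 in the first set and fell by 0.28 in the second (difference -0.72 ± 0.08, edgeR adjusted p = 1.64e-07), and NFKBIA, the inhibitor of NF-kB, with pair responses of 0.15 to 0.34 and of -0.39 to -0.13 (difference -0.46 ± 0.06, edgeR adjusted p = 1.85e-06). The splicing factor genes SRSF5 and SRSF2 rose by 0.22 and 0.21 in replicates 1-2 and fell by 0.17 and 0.18 in replicates 3-4.

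The lists with few called members gave single genes. ID1, an inhibitor of basic helix-loop-helix factors, had a difference of -0.26 ± 0.07 (edgeR adjusted p = 0.0188). Its call was lost under 5 of 26 alternatives, among them without Clone 35. In Clones 28, 35 and 39 the ID1 difference was -0.07, -0.50 and -0.16. TSC22D3, induced by glucocorticoids, had one of -0.44 ± 0.13 (edgeR adjusted p = 0.0376), which was -0.96, -0.23 and -0.05 in Clones 28, 35 and 39. Its call was lost without Clone 28 and without each of the replicates 2, 3 and 4 of that clone, and the difference ran from -0.58 to -0.16 over all alternatives. The DNA damage genes GADD45A and GADD45B had -0.62 ± 0.18 and -0.23 ± 0.07 (edgeR adjusted p = 0.0352 and 0.0321). Their calls were lost under 6 and 7 of 26 alternatives. ALDOA, a glycolytic aldolase, was the 1 of 19 hypoxia and glycolysis genes called, at -0.30. Of 12 fatty acid synthesis genes, the elongase ELOVL5 was called, at 0.14, and lost its call under 11 of 26 alternatives. SNHG15, a host gene of small nucleolar RNAs, was the 1 of 15 called, at -0.34. Among 83 cytosolic ribosomal protein genes 9 were lower (10.8%, against 2.93% of all genes) and 1 higher, with a median difference of -0.06. RPL26L1 was among the lower members (-0.35 ± 0.10, edgeR adjusted p = 0.0256). NFKB2 and MYLK, a contractile kinase and the only basal marker called, had differences of -0.31 and -0.64 with adjusted p = 0.0784 and 0.0578 (edgeR) and lost their calls under 17 and 12 of 26 alternatives.

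Transcription factors of the luminal lineage held the highest share of higher calls among the lists described here. These factors set the luminal identity of breast epithelium and control ER binding and expression. Of 15 tested, TRPS1 among them, 8 were higher (53.3%, against 2.52% of all genes) and 1, KLF5, lower, with a median difference of 0.13. Of all genes with a mean log2 CPM over 7, as TRPS1, FOXA1 and XBP1 have, 17.1% were higher. Of the 10 luminal markers 5 were higher, all of them members of this list. FOXA1, the pioneer factor that opens chromatin for ER, was at 144.2 to 182.4 CPM in DMSO in replicates 1-2 (median 162.2) and at 127.2 to 152.0 CPM in replicates 3-4 (median 137.0). With dTAG-13 it was at 126.4 to 164.6 CPM (median 137.8) and at 131.6 to 163.0 CPM (median 153.0). It fell by 0.20 in replicates 1-2 and rose by 0.13 in replicates 3-4, and the pair responses of -0.34 to -0.10 and of 0.02 to 0.23 did not overlap. The difference was 0.33 ± 0.05 (edgeR adjusted p = 5.34e-05). FOXA1 overlaps TTC6 in antisense. Its bases upstream of the RefSeq start, at chr14:37595250-37595399 (minus strand, RefSeq on GRCh38.p14), hold none of the 4 motifs. They are shown beside the promoters above, since FOXA1 moved in the opposite direction. GENCODE begins FOXA1 at base 37596059, so the window lies within the gene as annotated there. Of 11 luminal factors with a RefSeq entry, 2 held TATAAA (18.2%) and 4 CCAAT (36.4%), against 3.6% and 26.6% among genes tested.
FOXA1: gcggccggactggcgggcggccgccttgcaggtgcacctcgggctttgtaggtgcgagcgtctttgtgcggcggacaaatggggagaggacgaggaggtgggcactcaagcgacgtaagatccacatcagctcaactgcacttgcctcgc
ESR1, which encodes ER alpha, was at 1582 to 1912 CPM in DMSO in replicates 1-2 (median 1764) and at 1205 to 1495 CPM in replicates 3-4 (median 1437). Its response was -0.01 in replicates 1-2 and it rose by 0.13 in replicates 3-4, a difference of 0.14 ± 0.03 (edgeR adjusted p = 0.00715), and the responses of the sets overlapped. GATA3 fell by 0.12 in replicates 1-2 and had a response of 0.02 in replicates 3-4, with a difference of 0.14 ± 0.03 (edgeR adjusted p = 0.000503). GRHL2, a grainyhead factor of epithelia, and PGR, the progesterone receptor, fell by 0.11 and 0.10 in replicates 1-2 and had responses of 0.04 and 0.05 in replicates 3-4. XBP1 had a difference of 0.17 ± 0.05 (edgeR adjusted p = 0.0214). KLF5 had a response of -0.05 in replicates 1-2 and fell by 0.39 in replicates 3-4, but its difference of -0.34 ± 0.12 passed the threshold only narrowly (edgeR adjusted p = 0.0977) and was lost under 21 of 26 alternatives. Without the replicate block 3 luminal factors were higher and none lower, with DESeq2 2 and none, and without Clone 39 4 and none.

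Of the classic estrogen-induced genes 9 of 20 were higher (45%, against 2.52% of all genes) and 1 lower. PGR and XBP1 are on the luminal list as well. GREB1, an ER cofactor and target, fell by 0.11 in replicates 1-2 and had a response of 0.05 in replicates 3-4. Its pair responses of -0.15 to -0.06 and of -0.04 to 0.12 did not overlap, and the difference was 0.15 ± 0.03 (edgeR adjusted p = 0.00022). NRIP1, an ER corepressor, also had pair responses without overlap, from -0.21 to -0.03 and from 0.03 to 0.18, and a difference of 0.20 ± 0.04 (edgeR adjusted p = 0.00193). MYC was at 73.7 to 97.0 CPM in DMSO in replicates 1-2 and at 60.2 to 70.7 CPM in replicates 3-4, and had a difference of 0.20 ± 0.06 (edgeR adjusted p = 0.0646), lost under 12 of 26 alternatives. AREG, which encodes the growth factor amphiregulin, was the lower member. It rose by 0.40 in replicates 1-2 and fell by 0.28 in replicates 3-4, a difference of -0.69 ± 0.13 (edgeR adjusted p = 0.000607, and 0.118 without the replicate block). Without the replicate block 1 of the 20 genes was higher, without Clones 35 and 39 in turn 4 and 2 were, and DESeq2 called none, with 9 at an unadjusted p under 0.05. Of 23 subunits of corepressor complexes, 2 were higher. GATAD2B of the NuRD complex had a difference of 0.16 ± 0.04 (edgeR adjusted p = 0.0309), and no subunit was called without the replicate block (edgeR, 7 at an unadjusted p under 0.05).

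The study's own lists of genes that respond to TRPS1 depletion were defined in a separate time course of Clone 28, and none of the libraries used here entered that choice. Of 234 genes activated gradually, 40 had a higher response in replicates 3-4 (17.1%) and 3 a lower one (1.28%). Over all genes these shares were 2.52% and 2.93%. The number of the 234 that rose was 63 in replicates 1-2 and 135 in replicates 3-4, and 51 rose in both. Over all genes 433 and 658 rose, and 342 and 482 fell. DESeq2 called 4 of the 234 higher, and the fit without the replicate block 12. Of 143 genes activated transiently, 23 were higher (16.1%) and 3 lower (2.1%). Of 217 genes repressed gradually, 21 were higher (9.68%) and 7 lower (3.23%), with 75 that fell in replicates 1-2 and 37 in replicates 3-4. Of 473 genes repressed transiently, 42 were higher (8.88%) and 8 lower (1.69%). Of the 473, 58 fell in replicates 1-2 against 24 in replicates 3-4, while 8 and 34 rose. Among the gradually repressed genes, RNF223, a ring finger gene, and DNAH17, an axonemal dynein, had the largest differences, -0.55 ± 0.12 and -0.75 ± 0.23 (edgeR adjusted p = 0.00328 and 0.0553). The difference of DNAH17 was -0.45, -0.37 and -1.51 in Clones 28, 35 and 39, and its call was lost under 8 of 26 alternatives, among them without each of the 4 pairs of Clone 39, with -0.41 as the value nearest to 0. LINC01511, among the transiently repressed genes, had 0.47 ± 0.16 (edgeR adjusted p = 0.0867) and lost its call under 16 of 26 alternatives. The median difference was between 0.06 and 0.08 in these 4 lists, which consist largely of long genes, with medians of 64104 to 124846 bases. Of all genes 1.95% were higher from 20 to 100 kb, 5.69% from 100 to 300 kb and 10% over 300 kb.

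Of the 65 ER target genes that the time course gave as activated, 17 were higher (26.2%) and 2 lower (3.08%) in replicates 3-4. Over all genes these shares were 2.52% and 2.93%. Of the 65 genes, 11 rose in replicates 1-2 against 27 in replicates 3-4. DESeq2 called 3 of them higher, the fit without the replicate block 8 and the fit without Clone 35 6. GNG11, a G protein gamma subunit, was at 43.6 to 71.0 CPM in DMSO in replicates 1-2 (median 60.1) and at 35.3 to 47.9 CPM in replicates 3-4 (median 45.9). With dTAG-13 it was at 47.7 to 78.5 CPM (median 68.3) and at 50.1 to 74.6 CPM (median 69.2). The medians were close with dTAG-13 and apart in DMSO, and the response of GNG11 shares those DMSO libraries. Its pair responses of 0.01 to 0.33 and of 0.50 to 0.71 did not overlap, and the difference was 0.42 ± 0.07 (edgeR adjusted p = 4.8e-05). COL12A1, which encodes a fibril-associated collagen, had a response of 0.00 in replicates 1-2 and rose by 0.23 in replicates 3-4, with pair responses of -0.07 to 0.04 and of 0.17 to 0.31. RERG, a growth-inhibiting small GTPase, had a response of 0.05 in replicates 1-2 and rose by 0.28 in replicates 3-4. GSTM5 and the antisense RNA CLRN1-AS1 had differences of 0.34 ± 0.07 and 0.31 ± 0.08 (edgeR adjusted p = 0.000837 and 0.018). GSTM5 overlaps its paralog GSTM3. Of 57 repressed ER target genes, 8 were higher (14%) and 3 lower (5.26%), and 26 fell in replicates 1-2 against 12 in replicates 3-4. IL6ST, the shared receptor subunit of interleukin-6 cytokines, fell by 0.16 in replicates 1-2 and had a response of 0.01 in replicates 3-4. SERPINI1 and DEGS2 were lower, with differences of -0.37 ± 0.08 and -0.32 ± 0.08 (edgeR adjusted p = 0.00535 and 0.00911).

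**Figure D4:**
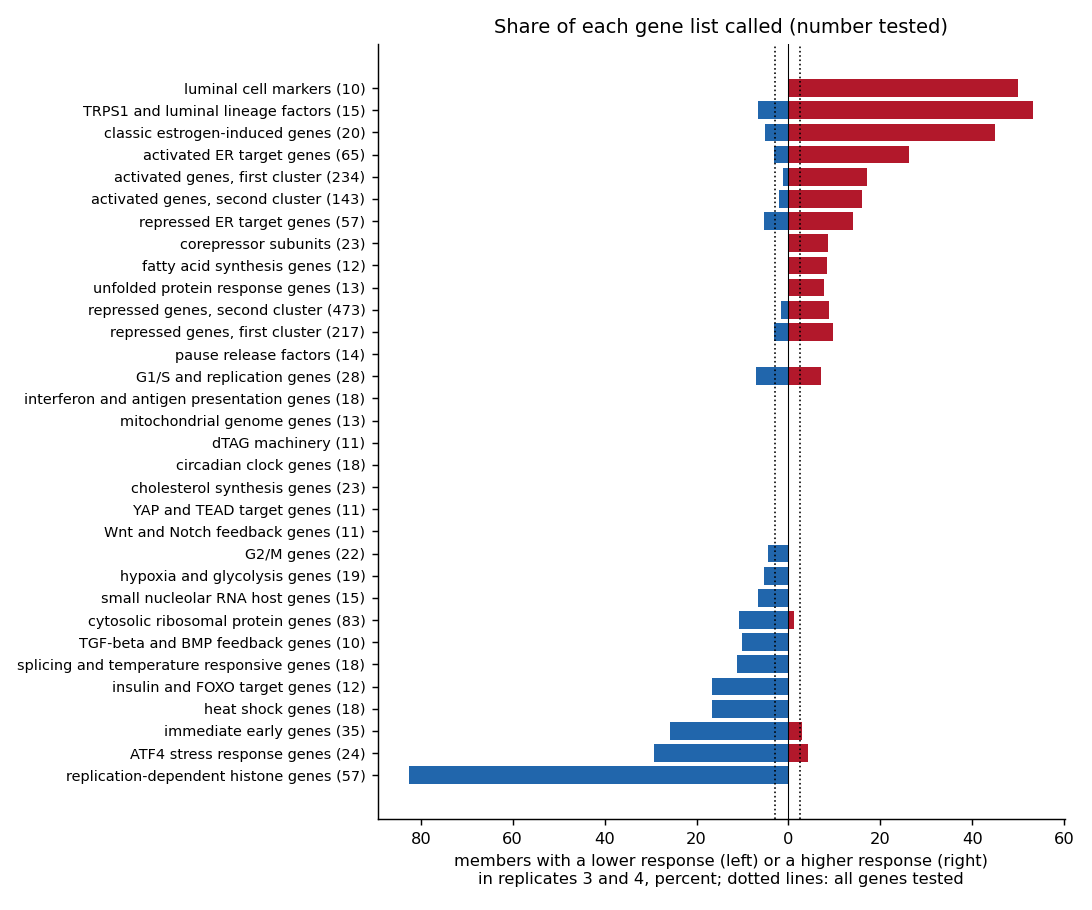
Percent of the tested genes of each list whose response was lower (blue, to the left) or higher (red, to the right) in replicates 3-4, with the number of genes tested beside the name and dotted lines for all genes tested. The histone genes reach 82.5% lower and the luminal factors 53.3% higher, against 2.93% and 2.52% of all genes.

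Cholesterol synthesis genes had similar median responses in both sets. Of 23 tested, 8 rose in replicates 1-2 and 7 in replicates 3-4, with 4 in both, and the median response was 0.13 and 0.12. HMGCS1 rose by 0.25 and 0.28, and SC5D by 0.17 and 0.24. No gene of the list had a difference that passed the test in edgeR or DESeq2, and 2 had an unadjusted p under 0.05 (edgeR). No gene was called in edgeR or DESeq2 either among 18 circadian clock genes, 11 genes of the cereblon ligase and other dTAG machinery, 14 pause release factors, 11 YAP and TEAD targets, 11 Wnt and Notch feedback genes, 5 metallothionein and zinc genes and 18 interferon and antigen presentation genes, where 2, 2, 2, 3, 2, 1 and 5 had an unadjusted p under 0.05 (edgeR). Over all genes 3588 of 22326 had one. The median difference of the interferon genes was -0.17. Neither the clock genes nor the dTAG machinery had a member called in either set. CRBN, the substrate receptor of the ligase that dTAG-13 recruits, had responses of -0.09 and 0.03 (edgeR adjusted p = 0.458 and 0.833). BMAL1 and PER2 of the clock had differences of 0.17 and 0.19 (edgeR adjusted p = 0.467 and 0.144), and NR1D1 one of -0.36 (edgeR adjusted p = 0.343).

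Among all genes whose sets did not overlap, the larger positive differences were found in genes that fell in replicates 1-2 as well as in genes that rose in replicates 3-4. KRT15, a keratin of basal and progenitor cells, was at 122.5 to 240.4 CPM in DMSO in replicates 1-2 (median 131.1) and at 86.0 to 168.4 CPM with dTAG-13 (median 100.7). In replicates 3-4 it was at 94.3 to 184.7 CPM in DMSO (median 106.7) and at 87.0 to 186.1 CPM with dTAG-13 (median 108.3). It fell by 0.44 ± 0.04 in the first set and had a response of 0.02 in the second, so that the difference was 0.46 ± 0.06 (edgeR adjusted p = 1.64e-07). FLOT1, a lipid raft scaffold, had pair responses of -0.40 to -0.17 in replicates 1-2 and of -0.05 to 0.58 in replicates 3-4, a difference of 0.47 ± 0.08 (edgeR adjusted p = 0.000207). CENPO of the kinetochore and LRRC37B had differences of 0.39 ± 0.10 and 0.36 ± 0.10 (edgeR adjusted p = 0.0192 and 0.0343). GABBR1, a GABA receptor subunit, and the non-coding MIR4307HG had 0.41 and 0.56 (edgeR adjusted p = 0.0545 and 0.0794) and lost their calls under 12 and 18 of 26 alternatives. The pseudogene AURKAP1 had the largest positive difference, 1.15 ± 0.28 (edgeR adjusted p = 0.0123), at 2.07 to 5.98 CPM over all libraries, and lies within RAB3GAP2. The pseudogene ENSG00000267295 and ENSG00000258414, which has no symbol in the annotation used, had 0.74 ± 0.22 and 0.35 ± 0.08 (edgeR adjusted p = 0.04 and 0.00727).

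The larger negative differences fell mostly on short or low genes. TUBB2A, a beta tubulin isotype, was at 11.1 to 17.8 CPM in DMSO in replicates 1-2 (median 15.4) and at 22.1 to 36.9 CPM in replicates 3-4 (median 32.3). With dTAG-13 it was at 17.8 to 24.7 CPM (median 21.7) and at 20.4 to 29.0 CPM (median 21.2). It rose by 0.56 in the first set and fell by 0.42 in the second, with pair responses of 0.24 to 0.75 and of -0.70 to -0.08, and the difference was -0.98 ± 0.12 (edgeR adjusted p = 1.44e-07). BPHL overlaps TUBB2A in antisense. CNFN, a cornified envelope gene, and ELOVL3, a fatty acid elongase, had differences of -0.94 ± 0.16 and -0.93 ± 0.18 (edgeR adjusted p = 0.000117 and 0.00093). MIR611, a microRNA gene within TMEM258, had -1.10 ± 0.24 (edgeR adjusted p = 0.00367) at 2.50 to 8.84 CPM. The other 6 genes with the largest negative differences were non-coding RNAs without a symbol, with differences from -0.97 (ENSG00000273481) to -0.85 (ENSG00000285177), and 1 of them, ENSG00000262766, overlaps KAT8 on the same strand. ENSG00000282904 lies antisense to COMMD8, ENSG00000270638 to EPM2A and ENSG00000285177 to TBCE.

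The direction of the difference went with the length of the gene. The median difference was -0.19 in the 1266 genes up to 1 kb long, -0.09 from 1 to 5 kb, -0.03 from 5 to 20 kb, 0.03 from 20 to 100 kb and 0.06 both from 100 to 300 kb and over 300 kb. The share of lower calls was 8.53% in the shortest class and 0.604% in the longest, and that of higher calls 0.474% and 10%. Genes with a higher response had a median length of 122746.5 bases and genes with a lower response of 6010, against 28675 for all. Over 2606 genes up to 5 kb long with a mean log2 CPM of at least 2 the median response of a pair was -0.01 to 0.11 in replicates 1-2 and -0.12 to -0.02 in replicates 3-4, without overlap. Over 3825 such genes above 100 kb it was -0.04 to 0.01 and 0.01 to 0.08, and the value of Clone 28 replicate 4 in the second set (0.0064) lay below that of Clone 35 replicate 1 in the first (0.0139). Histone genes made up 7.19% of the lower calls, and the 1225 other genes up to 1 kb had a median difference of -0.18, with 72 called lower (5.88%).

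**Figure D5:**
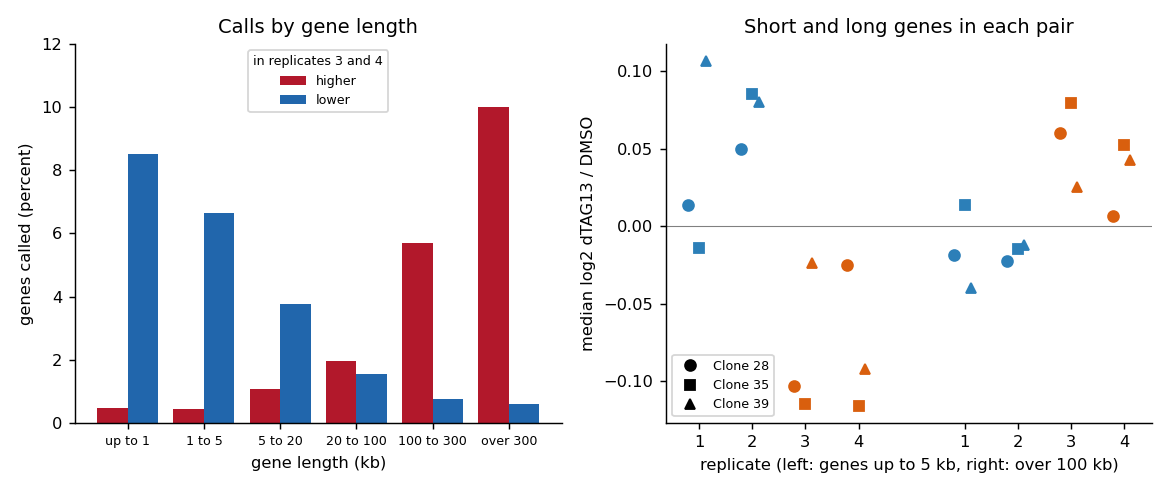
Left, percent of genes called higher (red) or lower (blue) in replicates 3-4 by class of gene length in kb; right, median response (log2) in each of the 12 pairs over genes up to 5 kb and over genes above 100 kb, by replicate number, shaped by clone and coloured by replicate set. From the shortest to the longest class the share of lower calls goes from 8.53% to 0.604% and that of higher calls from 0.474% to 10%.

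To describe what remains within lengths, each library was rescaled over 25 classes of gene length, a setting chosen after seeing the data. The median difference of the shortest class was then -0.06 and those of the other classes lay between 0.00 and 0.03. The response was higher in replicates 3-4 for 221 genes and lower for 374, of which 195 and 352 were among the calls without rescaling. TRPS1 kept a difference of 0.13 (edgeR adjusted p = 0.0148) and FOXA1 one of 0.38 (edgeR adjusted p = 3.78e-06). Of the histone genes 16 were lower and 1 higher, with a median of -0.20. The luminal factors had 7 higher and none lower, the classic estrogen-induced genes 7 and 1, and the activated ER target genes 12 and 1. Immediate early genes had 7 lower and 2 higher, and ATF4 response genes 4 lower and 1 higher. The gradually activated genes had 14 higher and 2 lower, the transiently activated genes 11 and 2, the gradually repressed genes 11 and 6 and the transiently repressed genes 13 and 6. Ribosomal protein genes had 4 higher and 4 lower. TUBB2A, PPP1R15A, CEBPD, NFKBIA, SRSF5, KRT15 and GNG11 kept their calls, and GATAD2B and ID1 did not. Whether the part of the difference that goes with length arose in the cells or in the libraries was not tested, and the replicate number and the time of collection cannot be told apart from any other step that was shared within a replicate number.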

How the data were processed

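PRO-seq was performed on 24 samples, DMSO and dTAG-13 in Clones 28, 35 and 39 with 4 replicates each, grouped by clone, treatment and replicate number as the sample labels give them. The authors trimmed adapters with cutadapt (1.8.1 in the submitters' processing notes), deduplicated reads by UMI with fqdedup, turned them to the RNA strand with seqtk, discarded those from ribosomal DNA, mapped what remained to hg38 with Bowtie2 (2.4.4) and SAMtools (1.9), and used bedtools for counting per gene. The deposited values are counts, whole numbers per gene without normalization. The annotation and strand setting of the counting are not given in the sources used here. GENCODE on hg38 supplied a symbol for 60463 of 60605 identifiers, and 7268 genes had no read.

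The counts were fitted with edgeR 4.0.16 in R 4.3.3 (filterByExpr on the 6 groups with minimum count 10, TMM, robust quasi-likelihood test). The model had a term for each of the 12 pairs, a dTAG-13 response per replicate set and a response by clone, with 8 residual degrees of freedom. Each clone's own difference came from a fit with a response per clone and set, which leaves 6. Benjamini-Hochberg adjustment ran over the whole table of tested genes, and calls are at 0.1, the study's threshold. CPM for single pair responses had a prior count of 2. Within each replicate group chi-square per degree of freedom between libraries was 1.64 to 13.6, so the spread between replicates exceeded counting error. The labels do not say whether replicates were separate cultures, and the p-values measure the spread between these samples. The pairing comes from the clone and replicate number in the labels. That a number marks a shared collection is inferred from the study's methods. The deviations of paired libraries from their group means had correlations of 0.0926 to 0.318 (mean 0.185). Scripts were tested on simulated data. The members and gene lists were chosen with earlier results of these data known.

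Genes named are TRPS1, the 10 called genes with the largest difference in each direction whose sets did not overlap and whose mean log2 CPM was at least 2, and the 2 called members of each list with the largest difference. Others named from the lists were chosen after their values were seen, and some genes that the rule selects are not reported here. Promoters are RefSeq sequences on GRCh38.p14, 150 bases upstream of the start. The alternatives were RLE scaling, library totals only, no filter, at least 10 counts in every library, no robust step, no clone term, no replicate block, a threshold of 0.05, limma-trend (limma 3.58.1) on pair differences, DESeq2 1.42.0, leaving out each pair or clone, and, chosen after seeing the data, rescaling within 25 classes of gene length.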

Additional observations from a re-analysis of the deposited data

Results flagged for a closer look

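The response differed between the sets by the test of the difference itself for 562 genes with a higher and 654 genes with a lower value in replicates 3-4, and for TRPS1 with a difference of 0.16. The difference was unequal among the 3 clones for 2 genes, CALY (4.18, 1.04 and -4.41 on the log2 scale in Clones 28, 35 and 39) and ENSG00000253281 (3.85, -6.87 and 2.79), both with a mean log2 CPM under 1 and an adjusted p of 0.0222 (edgeR quasi-likelihood test).

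Single values stood far from the others of their group, relative to the range of the group, in 14 of 226 groups of values checked, where chance at 1 in 20 would give 11.3. The share of reads in genes up to 5 kb was 8.81% in Clone 35 DMSO replicate 1 and 10.5% in Clone 35 dTAG-13 replicate 2, each the highest of its 4 libraries. Among single genes, the response of ENSG00000258414 was -0.54 in Clone 28 replicate 1, that of NFKBIA 0.34 in Clone 39 replicate 2, that of ENSG00000282904 -1.02 in Clone 39 replicate 3 and that of ENSG00000270638 -1.48 in Clone 39 replicate 3. Among list medians in Clone 35 replicate 1, the dTAG machinery was at 0.082, the cytosolic ribosomal protein genes at -0.036 and the histone genes at 0.10. In Clone 28 replicate 4, the hypoxia and glycolysis genes were at 0.078, the luminal cell markers at -0.13 and the repressed ER target genes at -0.17. The insulin and FOXO target genes were at 0.11 in Clone 28 replicate 1, and the fatty acid synthesis genes at 0.16 in Clone 39 replicate 2.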

How the results depend on the processing

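None of the 61 genes picked by the fixed rule changed sign under any of the alternatives. The TRPS1 difference stayed past the threshold in all of them (0.12 to 0.17, with an edgeR adjusted p of 0.0683 without the replicate block). Of these 61 genes 18 kept their call under every alternative, 41 lost it under DESeq2 and 15 without the replicate block. The other genes named from the lists were not followed gene by gene through the alternatives. Counts of genes whose response differed, was higher and was lower in replicates 3-4, and of genes called in replicates 1-2 and in replicates 3-4, were 1216, 562, 654, 775 and 1140. In the same order they were 579, 159, 420, 305 and 603 without the replicate block, 123, 23, 100, 94 and 206 with DESeq2, 752, 362, 390, 280 and 627 without Clone 28, 328, 98, 230, 405 and 411 without Clone 35, and 595, 221 and 374 for the first 3 with length scaling, which left 747 in replicates 3-4. At a threshold of 0.05 the first 4 were 722, 288, 434 and 471, without Clone 39 they were 497, 177, 320 and 391, and with length scaling and without the pair of Clone 35 replicate 2 they were 472, 168, 304 and 492. Without the robust step 753 differed, 279 were higher and 458 were called in replicates 1-2. The count of higher genes was 261 with library totals only and 335 with no filter on low counts. Leaving out one pair at a time gave 728 to 1498, 285 to 785, 443 to 713, 448 to 868 and 629 to 1280 genes. More genes were higher than lower without Clone 28 replicate 4 (785 and 713), and more were called in replicates 1-2 than in replicates 3-4 without Clone 28 replicate 3 (791 and 717), Clone 35 replicate 3 (714 and 629) and Clone 39 replicate 4 (767 and 724). Within Clones 28, 35 and 39 (49, 132 and 67 genes) the counts were 0, 8 and 10 without the robust step, 31, 66 and 35 at a threshold of 0.05, and 142 in Clone 39 with no filter. A stricter threshold gives fewer calls by construction, and for the other settings the cause was not tested. DESeq2's median gene-wise dispersion was 1e-08, its lower limit, and its fitted median 0.0673. By mean log2 CPM (under 1, 1 to 3, 3 to 5, 5 to 7 and over 7), 0.735%, 0.364%, 0.522%, 3.16% and 17.1% of genes were higher, and none, 1.25%, 4.40%, 3.57% and 1.95% lower.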

Other observations

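The 11 genes that fell in replicates 1-2 and rose in replicates 3-4 were, besides FOXA1 and FLOT1, PARD6B (-0.12 and 0.13), THSD4 (-0.06 and 0.07), ARID2 (-0.09 and 0.11), SOS2 (-0.16 and 0.12), PRKCE (-0.09 and 0.07), DYRK1A (-0.10 and 0.08), WWC2 (-0.12 and 0.13), SPINK13 (-0.08 and 0.15) and the unnamed ENSG00000228950 (-0.35 and 0.30). PARD6B encodes a polarity protein of the apical complex, ARID2 a subunit of the PBAF chromatin remodeller, SOS2 a RAS exchange factor and PRKCE a protein kinase C. The 13 genes of the mitochondrial genome, which have their own polymerase, were lower in replicates 3-4 than in replicates 1-2 in both treatments (median -0.25 in DMSO and -0.26 with dTAG-13), and none had a response that differed between the sets in edgeR or DESeq2, with 0 at an unadjusted p under 0.05 in either.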
